A study of Mus musculus with 2 samples.

Results

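The miR-7 family of the mouse comprises 3 microRNA genes, Mir7-1, Mir7-2 and Mir7b, which were taken from the tables by their Ensembl gene IDs and GENCODE symbols. All 3 have a row, out of 1973 gene rows in each table. The tables come from microRNA sequencing of RNA under 30 nt from the midbrain of healthy embryos of the mouse strain B6NCrl at embryonic day 13.5. The tissue pooled male and female embryos, and no allele or treatment is named. There is 1 group of 2 biological replicates with 1 library each, and both carry the same donor record, so how far the pools were independent is not known and the spread between them may be partly technical. The series has no further tissue, stage or treatment, and the comparisons are between the 3 loci and between the 2 libraries.

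A microRNA is cut from a hairpin transcript, and its seed, bases 2 to 8 of the mature strand, pairs with messenger RNAs to repress them. miR-7 is an ancient microRNA of neurosecretory and sensory cells. In mammals it is known from brain, pituitary and pancreatic islets, and it represses Pax6, a transcription factor of neural progenitors. In mammalian brain the circular RNA Cdr1as binds miR-7 at many sites, the long noncoding RNA Cyrano directs the destruction of miR-7, and miR-671 directs the cleavage of Cdr1as.

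The sequences are shown because they fix which reads can be told apart by locus. The hairpins are given from RefSeq on GRCm38.p6, the assembly also called mm10, with the annotated mature arms in capitals.
Mir7-1 hairpin: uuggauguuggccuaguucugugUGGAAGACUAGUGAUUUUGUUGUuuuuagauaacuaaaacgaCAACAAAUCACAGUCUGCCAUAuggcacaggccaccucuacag
Mir7-2 hairpin: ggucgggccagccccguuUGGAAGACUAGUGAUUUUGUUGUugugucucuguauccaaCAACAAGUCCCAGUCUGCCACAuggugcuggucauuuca
Mir7b hairpin: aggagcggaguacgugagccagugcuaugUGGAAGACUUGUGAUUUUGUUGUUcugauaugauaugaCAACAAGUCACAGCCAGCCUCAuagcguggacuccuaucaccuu

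In the mature sequences the capitals mark the seed.
mmu-miR-7a-5p: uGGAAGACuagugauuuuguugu
mmu-miR-7b-5p: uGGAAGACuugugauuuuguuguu
mmu-miR-7a-1-3p: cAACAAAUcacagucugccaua
mmu-miR-7a-2-3p: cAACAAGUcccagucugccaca
mmu-miR-7b-3p: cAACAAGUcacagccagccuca

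Mir7-1 and Mir7-2 both encode miR-7a-5p, and Mir7b encodes miR-7b-5p. The 5p arms share the seed, and no other mature microRNA of the RefSeq table has it. Over the 23 bases in common they differ by 1 substitution, A10U (miR-7a-5p base, position from the 5′ end, miR-7b-5p base), which lies outside the seed. The annotated miR-7b-5p is also 1 base longer at its 3′ end. The 3p arms differ more. miR-7a-1-3p and miR-7a-2-3p differ by 3 substitutions over 22 bases (A7G, A10C and U21C), of which A7G lies in the seed. miR-7a-2-3p and miR-7b-3p share a seed and differ by 4 substitutions (C10A, U14C, U16A and A20U). Over the whole hairpins, global alignment gave 68.8% identity between Mir7-1 and Mir7-2, 66.9% between Mir7-1 and Mir7b, and 64.3% between Mir7-2 and Mir7b.

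The loci lie on different chromosomes. Mir7-1 (ENSMUSG00000065434.1) is at chr13:58392779-58392886 on the minus strand, inside Hnrnpk, which encodes an abundant RNA-binding protein and is read in the same direction. It falls in the last intron of all 12 Hnrnpk transcripts that span it, and overlaps an exon in none of the 34 annotated transcripts. Mir7-2 (ENSMUSG00000065609.1) is at chr7:78888277-78888373 on the plus strand and overlaps no other annotated gene, the nearest being Aen at 7481 nt. Mir7b (ENSMUSG00000065491.1) is at chr17:56242988-56243098 on the plus strand and also overlaps none. It starts 183 nt after the end of AC026385.1, a long intergenic noncoding RNA on the same strand. The nearest other microRNA with a row in the tables is 79.6 kb from Mir7-1 (Mir6369), 617 kb from Mir7-2 (Mir9-3) and 176 kb from Mir7b (Mir6977), and Mir6369 had 0 counts in both libraries.

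The tables list multimapping reads in a row of their own, apart from the loci, so sequence shared between loci bears on each count. The 23 bases of miR-7a-5p occurred in 2 of 1005 RefSeq hairpins, those of Mir7-1 and Mir7-2, and in the same 2 genes among 141767 GENCODE transcripts. Sequence outside annotated transcripts was not searched. The other 4 mature arms each occurred in their own hairpin alone. The longest run that Mir7-1 shares with another hairpin is 24 nt, from its position 24 to 47, against positions 19 to 42 of Mir7-2. The longest run Mir7b shares with any is 14 nt. Of windows of 20 nt, 5 of 89 in Mir7-1 and 5 of 78 in Mir7-2 occurred in another hairpin, against 0 of 92 in Mir7b. A read whose letters all lie within the run of 24 nt matches Mir7-1 and Mir7-2 equally, and the alignment settings that decided its place are not stated. The tables do not split counts by arm, and how many of the multimapping reads were miR-7a-5p is not known.

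**Figure D1:**
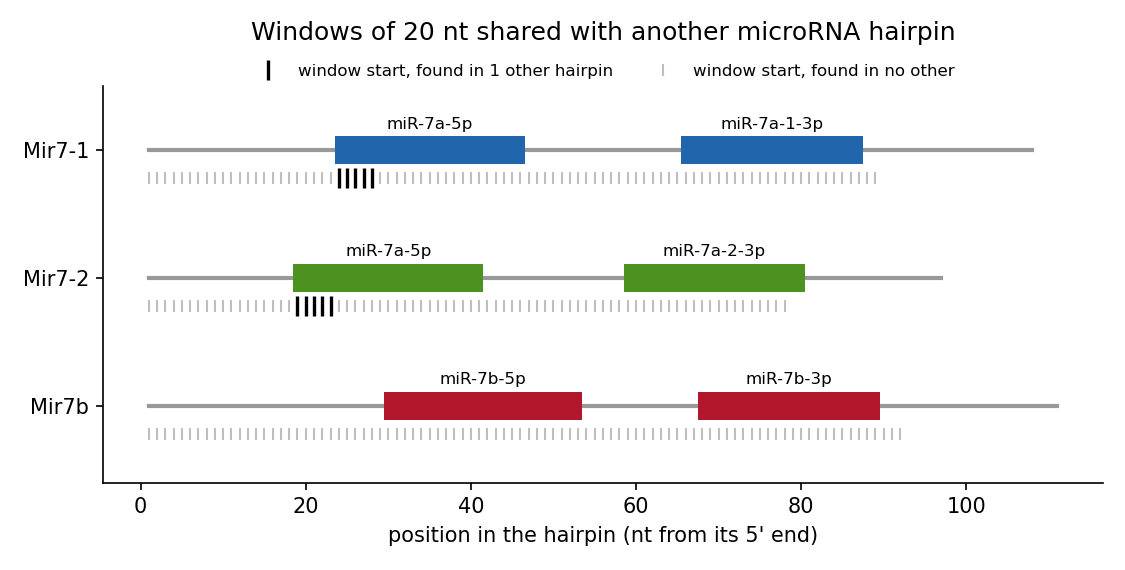
Position along each miR-7 hairpin in nt from its 5′ end (x axis), with the annotated mature arms as coloured boxes and a tick at the start of each 20-nt window, black where another RefSeq hairpin holds the same letters. The 5 black ticks of Mir7-1 and the 5 of Mir7-2 lie in and just after the start of miR-7a-5p, and Mir7b has none.

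The same-strand counts of all genes summed to 5093743 in replicate 1 and to 2935841 in replicate 2, and multimapping reads made up 34.4% and 37.7% of the reads. The total behind these percentages holds same-strand, unmapped, multimapping and unassigned reads, without ambiguous ones. A locus without a count may lie at up to 0.589 CPM (counts per 1000000 same-strand gene counts) in replicate 1 and 1.02 CPM in replicate 2. These limits, from 3 counts, and the intervals given here cover counting error only. All 12 rows of the neural marker list had counts, with a summed level of 30482 and 28492 CPM, led by Mir135b, Mir92b and Mir137. Having counts does not by itself mark the tissue. The endothelial, erythroid, leukocyte and liver marker lists also had no row at 0 in both libraries. The Mir124a loci, whose mature strand is shared by 3 genes, each had under 10 CPM. Of the muscle markers, 3 of 4 rows (Mir133a-1, Mir133a-2 and Mir1a-1) had 0 counts in both libraries, and Mir206 had 14.7 and 10.6 CPM. The rows at 0 are also listed among microRNAs with several gene copies, whose shared reads may lie among the multimapping reads. Their 0 counts therefore do not show that muscle was absent.

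Mir7b had the most counts of the 3 loci, followed by Mir7-1 and Mir7-2, in each library. Mir7b had 7879 counts in replicate 1 and 2173 in replicate 2, a level of 1547 and 740 CPM. Mir7-1 had 3522 and 1273 counts, a level of 691 and 434 CPM. Mir7-2 had 1772 and 875 counts, a level of 348 and 298 CPM. Every locus stood higher in replicate 1, and the ranges of the 3 loci over the libraries did not overlap. The mean levels were 1143 ± 570 CPM for Mir7b, 563 ± 182 CPM for Mir7-1 and 323 ± 35.2 CPM for Mir7-2 (SD, n = 2). The means of Mir7b and Mir7-1 lay about 1 SD of Mir7b apart, and an exact permutation test of 2 values against 2 cannot go below a two-sided p of 0.333, so the order is reported as seen in each library, without a test. Each read stands for a whole small RNA, so levels were not divided by length. Per 100 nt of hairpin the order was the same, at 1030, 521 and 333 CPM for Mir7b, Mir7-1 and Mir7-2. With multimapping reads added to the denominator the mean levels were 638, 313 and 178 CPM. The order is one of locus counts and may not be that of the mature microRNAs, since the letters of miR-7a-5p do not tell its loci apart. In bulk tissue, fewer cells of a type and less of a microRNA per cell cannot be told apart.

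**Figure D2:**
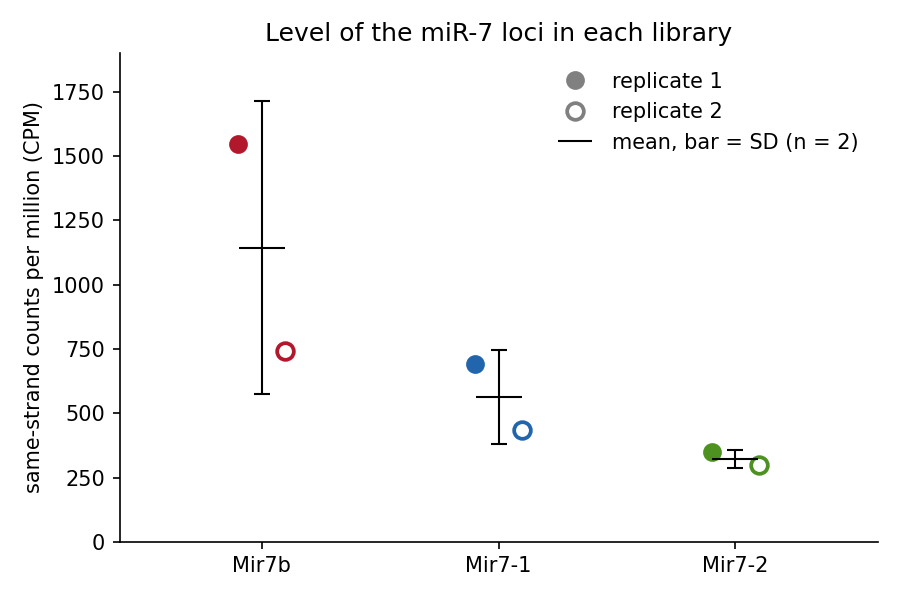
Level of each miR-7 locus in CPM of same-strand counts (y axis, linear from 0), filled circles for replicate 1, open circles for replicate 2, black marks for the mean and SD (n = 2). Mir7b at 1547 and 740 CPM lies above Mir7-1 at 691 and 434 CPM and Mir7-2 at 348 and 298 CPM, and the gap between the circles is widest for Mir7b.

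In mean level Mir7b ranked 90th, Mir7-1 118th and Mir7-2 151st of the 1973 rows. Of these rows only 676 in replicate 1 and 634 in replicate 2 had a same-strand count. The neighbours of Mir7b in rank were Mir425 and Mir674 above and Mir363 and Mir183 below, at 1149 to 984 CPM. Mir7-1 stood between Mir676 and Mir135a-1 above and Mir320 and Mir128-1 below, at 572 to 532 CPM. Mir7-2 stood between Mir328 and Mir669l above and Mir96 and Mir494 below, at 342 to 313 CPM. All of these neighbours lay within 1 SD of the member they flank. Mir7b was 76th in replicate 1 and 99th in replicate 2, Mir7-1 was 108th and 131st, and Mir7-2 was 150th and 148th.

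Among 858 loci with annotated arms in the RefSeq table, 49 have 1 of their 2 arms in common with another hairpin, as Mir7-1 and Mir7-2 do. Their median level was 38.9 CPM, and 18 of the 49 reached 100 CPM. Mir7-1 was the 8th and Mir7-2 the 14th of them. Mir7b belongs to the 775 loci with no arm found in another hairpin of the RefSeq table, which had a median of 0.779 CPM. Of these 156 (20.1%) reached 100 CPM, and Mir7b was the 72nd. The 34 loci whose every annotated arm is shared had a median of 0 CPM, and 6 of them (17.6%) reached 100 CPM, led by Mir219a-2 at 1704 CPM and Mir9-3 at 377 CPM. Sharing was judged among the RefSeq hairpins only, so a copy missing from them goes unseen. Mir125b-1, for example, is classed as having no shared arm, although Mir125b-2 also had counts. These are descriptions of the tables, with no test.

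The 3 loci together had 13173 counts in replicate 1 and 4321 in replicate 2. In replicate 1 this is 0.259% of the same-strand gene counts (95% exact Clopper-Pearson interval 0.254 to 0.263). In replicate 2 it is 0.147% (0.143 to 0.152). The sum stood at 2029 ± 788 CPM (SD, n = 2), and the intervals of the libraries did not overlap. How many reads of miR-7a-5p these sums hold is not known.

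The makeup of the family also differed between the libraries. Mir7b held 59.8% of the family's counts in replicate 1 (exact interval 59.0 to 60.7) and 50.3% in replicate 2 (48.8 to 51.8). Mir7-1 held 26.7% (26.0 to 27.5) and 29.5% (28.1 to 30.8). Mir7-2 held 13.5% (12.9 to 14.0) and 20.2% (19.1 to 21.5). For none of the 3 loci did the intervals of the libraries overlap, and a share within the family does not depend on how the libraries are scaled to each other. The intervals cover counting error only. In level, 38.0% of 466 tested loci differed between the libraries by the exact binomial test given below. The shares and ratios can also depend on where reads of miR-7a-5p were placed. Reads that match Mir7-1 and Mir7-2 equally may lie among the multimapping reads, whereas Mir7b shares no window of 20 nt. The ratio of Mir7b to Mir7-2 was 4.45 in replicate 1 (4.22 to 4.68) and 2.48 in replicate 2 (2.29 to 2.69), and that of Mir7b to Mir7-1 was 2.24 (2.15 to 2.33) and 1.71 (1.59 to 1.83). Mir7-1 and Mir7-2, the loci that share an arm, stood at a ratio of 1.99 (1.88 to 2.11) and 1.45 (1.33 to 1.59). With 1 pair of libraries, the spread of these ratios between samples is not known beyond these values.

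**Figure D3:**
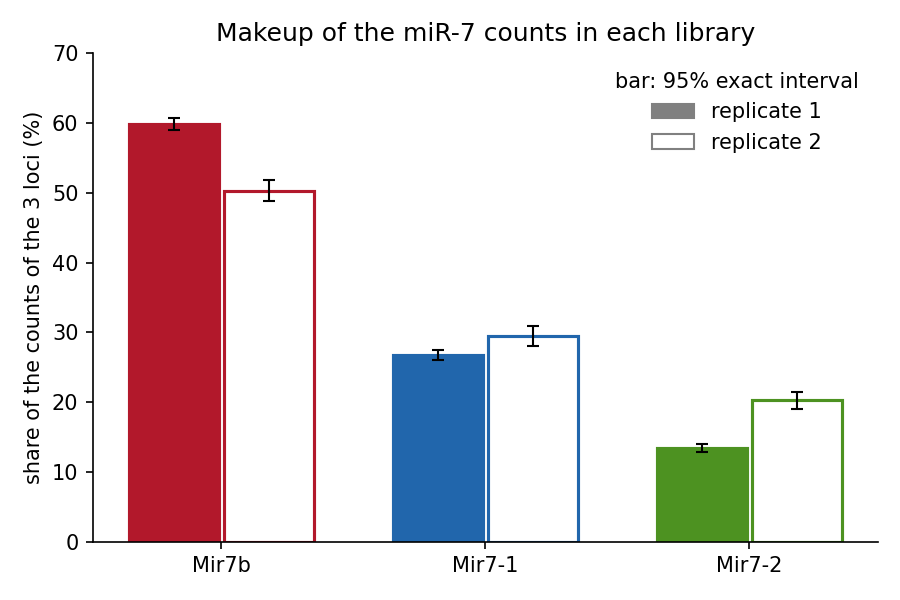
Share of each locus in the summed counts of the 3 miR-7 loci in percent (y axis, linear from 0), filled bars for replicate 1, open bars for replicate 2, error bars for the 95% exact interval. Mir7b holds 59.8% in replicate 1 and 50.3% in replicate 2, and Mir7-2 holds 13.5% and 20.2%.

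Mir7b differed most between the libraries and Mir7-2 least. After scaling by edgeR's trimmed mean of M-values (TMM), Mir7b was 1.99-fold higher in replicate 1 (log2 ratio 1.00, counting interval 0.93 to 1.07), Mir7-1 was 1.52-fold higher (0.61, 0.51 to 0.70) and Mir7-2 was 1.11-fold higher (0.16, 0.04 to 0.27). The exact conditional binomial test over 466 loci with at least 10 counts, adjusted by Benjamini-Hochberg, gave adjusted p of 1.39e-199 for Mir7b, 6.56e-39 for Mir7-1 and 0.0254 for Mir7-2. All 3 members passed, higher in replicate 1. The same test called 38.0% of the 466 loci, with 18.7% of them higher in replicate 1 and 19.3% higher in replicate 2. Of the called loci 49.2% were higher in replicate 1, and 61.9% with total counts only. The test compares these 2 libraries with counting error only, and the share called shows that many loci differ by more than that. With a fold of at least 1.5 required as well, Mir7b and Mir7-1 passed, against 7.30% of loci in either direction, 3.86% higher in replicate 1 and 3.43% higher in replicate 2.

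With spread between replicates taken into account, the differences did not pass. The common biological coefficient of variation over the 466 loci was 0.157, and edgeR's exactTest at that dispersion gave Mir7b an unadjusted p of 0.00233 and an adjusted p of 0.155. Mir7-1 had an adjusted p of 0.902 and Mir7-2 of 1. This test called 0.858% of the loci, split into 0.215% with the higher level in replicate 1 and 0.644% with it in replicate 2. They were Mir449a, Mir375 and Mir122, higher in replicate 2, and Mir3070a, higher in replicate 1 with 28 and 1 counts, all named after their values were seen. The dispersion comes from the same pair of libraries that the test compares. Over all 10 alternatives, this one included, the adjusted p of Mir7b ranged from 1.36e-228 to 0.155, and its log2 ratio from 0.99 to 1.06.

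**Figure D4:**
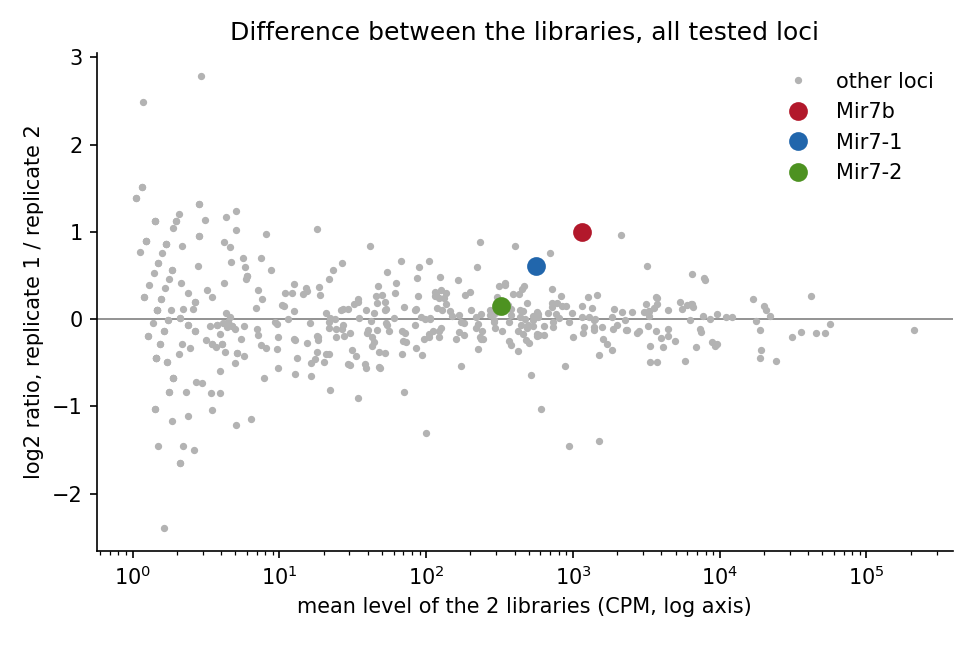
Log2 ratio of replicate 1 to replicate 2 after TMM scaling (y axis) against the mean level in CPM (x axis, log), 1 point for each of the 466 tested loci, with the miR-7 loci coloured. Mir7b at 1.00 lies at the upper edge of the points of its level, Mir7-1 at 0.61 is also above most, and Mir7-2 at 0.16 lies among them.

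The coefficient of variation from counting alone was 1.13 to 3.38% over the 3 loci and both libraries. Of 205 loci with a mean of at least 100 CPM, 192 lay within 1.5-fold between the libraries, with an SD of 0.31 for the log2 ratios. No locus of the 205 had a log2 ratio above that of Mir7b, 7 had one above that of Mir7-1, and 50 had one above that of Mir7-2. In absolute size 3 loci exceeded Mir7b. Among the 51 other loci within 2-fold of the mean level of Mir7b, the log2 ratio ran from -1.45 to 0.96 with a median of -0.0048, and none was above that of Mir7b. Among the 68 around Mir7-1, 2 had a higher log2 ratio than Mir7-1. Among the 73 around Mir7-2, 17 had a higher log2 ratio than Mir7-2. The exact binomial test called 35 of the 51, 40 of the 68 and 39 of the 73.

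The 5 loci nearest to Mir7b in log2 ratio, among those with a mean of at least 100 CPM, were Mir181b-2 (0.96), Mir138-2 (0.88), Mir138-1 (0.84), Mir182 (0.76) and Mir18b (0.67). Their distance from Mir7b ran from 0.032 to 0.33. Mir138-1 and Mir138-2, loci of a neuronal microRNA that acts at dendritic spines, stood at 523 and 308 CPM in replicate 1 and at 279 and 159 CPM in replicate 2. Nearest to Mir7-1 were Mir541, Mir667, Mir18b, Mir342 and Mir412, with log2 ratios of 0.48 to 0.67. Nearest to Mir7-2 were Mir96, Mir18, Mir135a-2, Mir425 and Mir384, with log2 ratios of 0.15 to 0.16. The measure is the absolute difference of log2 ratios over 2 libraries, so it describes this pair only.

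The list for the Cdr1as circuit held Mir671. It stood at 439 CPM in replicate 1 and 343 CPM in replicate 2, between Mir7-1 and Mir7-2 in mean level (391 ± 68.1 CPM, SD, n = 2). It was 1.22-fold higher in replicate 1 after TMM scaling (log2 ratio 0.29, adjusted p = 4.46e-07 by the exact binomial test). That test covers counting error only and called 18.7% of all 466 loci as higher in replicate 1.

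Of the 10 loci listed for endocrine and gland cells, where miR-7 is also known, 1 passed as higher in replicate 1, 2 passed as higher in replicate 2, and 7 did not, against 38.0% called over all tested loci. Mir375, a microRNA of pancreatic islets and pituitary, had 523 CPM in replicate 1 and 1365 CPM in replicate 2, a 2.73-fold difference (log2 ratio -1.45) opposite in direction to Mir7b. Mir429 was also higher in replicate 2, at 25.5 and 35.4 CPM, while Mir184 had 12 counts in replicate 1 and 0 in replicate 2. Mir217, Mir216b and Mir216a, known from pancreas, stood at 270 ± 14.9, 112 ± 4.12 and 72.7 ± 7.02 CPM and did not pass. The median log2 ratio of the 10 loci was -0.05, against -0.0041 over all tested loci.

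Of 51 rows listed for microRNAs with several gene copies, 45 were tested, of which 12 passed as higher in replicate 1 and 10 as higher in replicate 2, while 23 did not, against 18.7% and 19.3% of all 466 loci. Their median log2 ratio was -0.03. Mir181a-1, Mir153, Mir92-1 and Mir125b-1 had the highest levels of the list, from 6842 to 2349 CPM. Of the listed loci, Mir153, Mir101a, Mir101b, Mir125b-1 and Mirlet7a-2 share no annotated arm with another hairpin of the RefSeq table. The counts and the median thus include loci not shown by that table to have a copy.

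Markers of other cell types also differed between the libraries, and their counts of called loci stand against 19.3% of all 466 loci called higher in replicate 2. The endothelial Mir126a stood at 16256 CPM in replicate 1 and 21170 CPM in replicate 2. The mural list, with 5 rows and none at 0 in both libraries, summed to 5285 and 6963 CPM, and 3 of its 4 tested loci passed as higher in replicate 2. The choroid plexus list summed to 752 and 1038 CPM, with 1 of 2 loci passing. The multiciliated list, with 5 rows and none at 0 in both libraries, summed to 1312 and 2659 CPM, with 2 of 5 loci passing. The liver Mir122 stood at 58.9 and 139 CPM. Each of the levels named so far in this paragraph was higher in replicate 2, whereas the miR-7 loci were higher in replicate 1. The erythroid sum was 93.4 and 86.9 CPM over 3 rows and the leukocyte sum 319 and 349 CPM over 3 rows. Like the erythroid sum, the neural sum (30482 and 28492 CPM) and the muscle sum (14.7 and 10.6 CPM) were higher in replicate 1. These sums are CPM without TMM scaling, and not every member followed its sum. After TMM scaling the median log2 ratio was -0.23 over the 3 erythroid loci and -0.07 over the 12 neural loci. Mir206, the only muscle locus tested, had a log2 ratio of 0.40 and did not pass. Of the 12 neural loci, 1 passed as higher in replicate 1, against 18.7% of all 466 loci, and 2 as higher in replicate 2. The part of these cell types in the miR-7 difference was not tested.

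**Figure D5:**
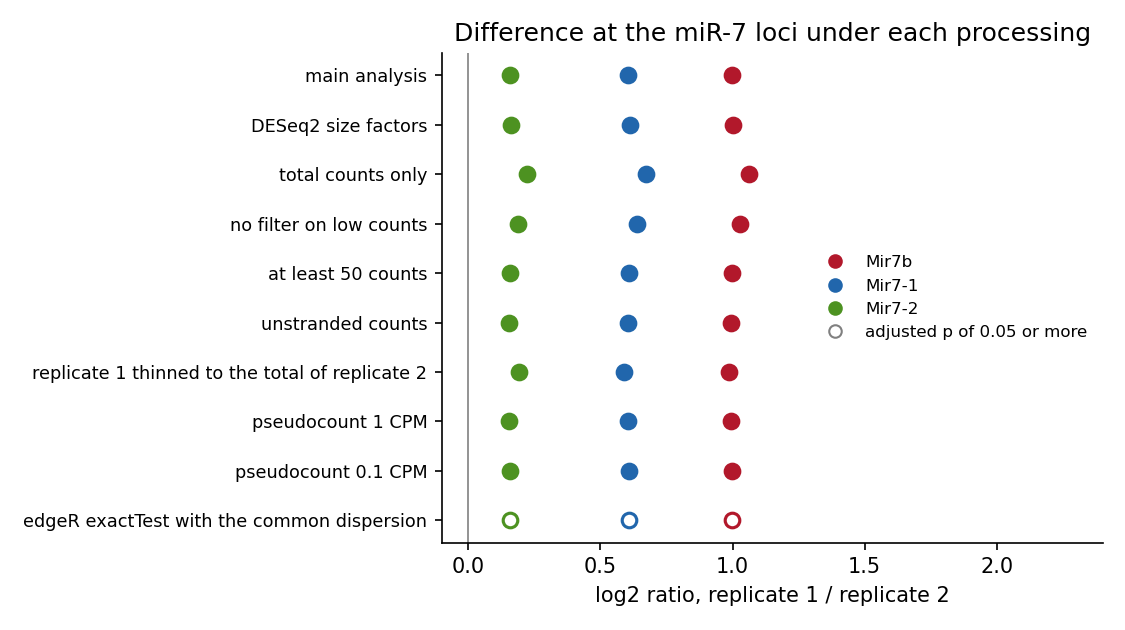
Log2 ratio of replicate 1 to replicate 2 (x axis) of Mir7b, Mir7-1 and Mir7-2 under each processing (rows), with open circles where the adjusted p was 0.05 or more. Each locus keeps its place, Mir7b from 0.99 to 1.06, Mir7-1 from 0.59 to 0.67 and Mir7-2 from 0.15 to 0.22, and all 3 circles are open for edgeR's exactTest.

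No count on the opposite strand was found at any of the 3 loci in either library, which allows up to 3 counts each. Folded with RNAfold, the hairpins had a predicted minimum free energy of -46.8 kcal/mol for Mir7-1, -40.5 for Mir7-2 and -35 for Mir7b. The prediction paired 20 of 23 bases of miR-7a-5p in Mir7-1, 19 of 23 in Mir7-2 and 17 of 24 bases of miR-7b-5p.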

How the data were processed

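The authors deposited raw read counts for each gene in 1 table a library, on mm10 with annotation M4, per the file headers of the accompanying notes. For the aligner, trimming and read filters, nothing is stated in the sources used. The columns hold counts without regard to strand, on the strand of the gene and on the opposite strand; this reading is inferred, as the first equals the sum of the others in 1973 of 1973 rows. The leading rows for unmapped (16.1% and 15.7%), multimapping, unassigned (3.79% and 3.80%) and ambiguous reads were left out. The total behind these percentages does not include ambiguous reads.

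Same-strand counts were scaled to CPM over all gene rows. Symbols came from GENCODE M21, matched for 1894 of 1973 IDs; the members have the same ID version. Sequences came from RefSeq (GRCm38.p6), matched for 3 of 3 members. The libraries were compared per locus by an exact conditional binomial test, two-sided, with library sizes scaled by TMM (edgeR 4.0.16, R 4.3.3, scipy 1.17.1) with Benjamini-Hochberg adjustment at 0.05; ratios use a pseudocount of 0.5 CPM. DESeq2 1.42.0 size factors, other count minimums, strands, denominators, thinning and edgeR's exactTest were alternatives. Hairpins were folded with RNAfold 2.7.2 and aligned with biopython 1.88.

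Named loci are the members, the 5 loci nearest in log2 ratio to each called member, 2 on each side in rank, and the 4 highest of each list. Mir429, Mir184, Mir3070a, the Mir124a loci and other loci outside this rule were named after their values were seen. The members and lists were chosen with earlier results of these data known.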

Additional observations from a re-analysis of the deposited data

How the results depend on the processing

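Every alternative kept the direction of the difference at all 3 loci, but not all of them could have changed it. Requiring a fold of 1.5 leaves the log2 ratio as it is, and pseudocounts of 0.1 and 1 CPM are small beside these levels. Unstranded counts alter only the scaling, as the 3 loci had no opposite-strand counts. The log2 ratio ranged from 0.99 to 1.06 for Mir7b, 0.59 to 0.67 for Mir7-1 and 0.15 to 0.22 for Mir7-2. With edgeR's exactTest and its common dispersion the log2 ratios were 1.00, 0.61 and 0.16 with adjusted p of 0.155, 0.902 and 1, and the calls fell from 177 loci to 4 (1 higher in replicate 1, 3 higher in replicate 2), as this test adds spread between replicates by construction. With a fold of at least 1.5 required, 34 loci were called (18 and 16), and Mir7-2 at 0.16 was not. With multimapping reads in the denominator the mean level of Mir7b was 638 CPM, that of Mir7-1 was 313 CPM and that of Mir7-2 was 178 CPM, as a larger total divides the same counts. Without Mir99a in the denominator Mir7-2 stood at 408 CPM. Unstranded counts and TMM-scaled library sizes moved each level by less than 1 SD. Unstranded counts could not change the shares, as none of the 3 loci had a count on the opposite strand. Without replicate 1 or replicate 2 a level or share is that of 1 library, which with 2 replicates always lies within 1 SD of the mean and says nothing of stability, and the difference between libraries could not be computed. No paired analysis was possible because the series has 1 group. The depth does not limit the 3 loci, whereas the single pair of libraries and the unassigned multimapping reads do.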
